A study of Homo sapiens with 3 samples.

Results

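Cytosolic ribosomal protein genes encode the protein components of the ribosome, the particle that translates mRNA in the cytoplasm. They were taken here by symbol, as names beginning RPL or RPS followed by a number with the letters A, X or L allowed, together with RPLP0, RPLP1, RPLP2 and RPSA. Of 88 rows that carried such a name in a table of 31907, 82 averaged 1 TPM or more across the 3 libraries and were kept, 50 with large subunit names and 32 with small subunit names. TPM is the share of a library's transcripts, a read count corrected for gene length and scaled to a fixed total. All 3 libraries were poly(A) RNA of NCI-N87, an established line of human gastric cancer cells, transfected with Lipofectamine 2000. The control library came from cells labelled wild type that received a scrambled siRNA, and the other 2 came from cells that received siRNA1 or siRNA2 directed at FOXP4, which encodes a transcription factor of the forkhead family. The 2 knockdown libraries are different reagents, each is 1 library, and the labels do not say whether the cultures were grown separately. In the order scrambled, siRNA1, siRNA2, FOXP4 itself measured 93.9, 51.6 and 36.7 TPM. The epithelial markers EPCAM, KRT8 and KRT19 lay between 781 and 1930 TPM, while CDH1, another epithelial marker, was low at 4.16, 5.86 and 11.6 TPM. CD14 was listed at 0 and PTPRC, the leukocyte marker, did not exceed 0.0516 TPM, but CSF1R, a macrophage gene, measured 4.33, 2.26 and 3.69 TPM and COL1A1, a fibroblast collagen, 13.1, 6.42 and 22.3 TPM.

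The small subunit reads the message and the large subunit joins amino acids, and each mature particle holds close to 1 copy of most of its proteins. The mRNAs of these proteins are among the most abundant in dividing cells. Most begin with a C followed by an unbroken run of pyrimidines, the terminal oligopyrimidine tract, through which mTOR signalling and LARP1 control their translation. Several proteins have a second gene, a paralog, that encodes a similar protein and can take its place in a share of ribosomes.

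The tract was searched for in RefSeq starts of transcription, because it is the sequence feature that defines these mRNAs as a class. A start was counted when its first base was C and at least the next 4 bases were each C or T. The RefSeq table on GRCh38.p14 held 66 of the 82 genes, with 82 listed starts, and 47 of these starts (57.3%) met the rule, 1 in each of 47 genes. Over all 35116 starts in that table the share was 4.07%. When the tract could begin up to 5 bases to either side of the start, 55 of the 66 genes had it, and 72.0% of their starts against 21.1% of all starts. The sequences below run from 15 bases before the start to 15 bases from it, and capitals mark the run of C and T from the first base, where that base is C. They show 3 abundant members first, then RPL22L1, RPS27L and RPL26L1 each after the gene it resembles, and last RPL36AL and RPL7L1 alone.
RPL13A: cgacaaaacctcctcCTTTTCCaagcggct
RPS12: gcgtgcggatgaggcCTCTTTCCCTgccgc
RPLP0: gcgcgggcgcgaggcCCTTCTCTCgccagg
RPL22: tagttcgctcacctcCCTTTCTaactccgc
RPL22L1: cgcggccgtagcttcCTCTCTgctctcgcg
RPS27: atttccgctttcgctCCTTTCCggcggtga
RPS27L: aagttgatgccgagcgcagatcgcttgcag
RPL26: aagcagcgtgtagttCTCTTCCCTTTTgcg
RPL26L1: agtcttccaggggtcggcgaacgaaacgcg
RPL36AL: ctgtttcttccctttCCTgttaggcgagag
RPL7L1: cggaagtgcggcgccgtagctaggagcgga

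These windows lie at chr19:49487593-49487622 on the plus strand for RPL13A, chr6:132814554-132814583 on the plus strand for RPS12 and chr12:120201097-120201126 on the minus strand for RPLP0. RPL22 was read at chr1:6199581-6199610 and RPL22L1 at chr3:170870181-170870210, both on the minus strand. RPS27 was read at chr1:153990747-153990776 on the plus strand and RPS27L at chr15:63157463-63157492 on the minus strand. RPL26 was read at chr17:8383179-8383208 on the minus strand and RPL26L1 at chr5:172958714-172958743 on the plus strand. RPL36AL was read at chr14:49620612-49620641 on the minus strand and RPL7L1 at chr6:42879601-42879630 on the plus strand. The paralogs were not alike in this feature. RPL22L1 had a tract of 6 bases. RPL36AL had a run of 3 at the start itself and a tract within 5 bases of it. RPS27L, RPL26L1 and RPL7L1 had none within 5 bases of a listed start. Other genes without it in that window were RPL15, RPL27, RPL6, RPL9, RPS15, RPS26, RPS29 and RPS4X. The forkhead core TGTTTAC, on either strand, was in 0 of the 82 promoter windows of 300 bases and in 3.42% of all such windows, and TATTTAC was in 0 and 2.67%. CCGGAAG, the core bound by ETS factors, was in 34.1% of the members' windows and 10.3% of all, and AAGATGGC, the core bound by YY1, was in 8.54% and 2.89%. Each motif was searched on both strands and apart from the others, so matches of different motifs could overlap, and a match or its absence is a description of these letters only.

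The levels spanned a wide range for genes whose products are needed in nearly equal number. The mean over the 3 libraries ran from 1.27 TPM to 5238 TPM, with a median of 714 TPM. Among 76 canonical members, which leave out 5 paralogs and the processed copy RPL12L3, 67 had a mean of at least 100 TPM and 29 of at least 1000 TPM. RPL13A, a large subunit protein, was the highest, at 5602 TPM in the scrambled library, 4083 TPM after siRNA1 and 6028 TPM after siRNA2. RPS2, a protein beside the path of the mRNA, measured 3536, 2331 and 3640 TPM, in the same order of libraries as used from here on. RPS12 measured 3310, 2235 and 3287 TPM. In each of these 3 the siRNA1 library was lowest, and the scrambled and siRNA2 libraries lay close together. RPS27, by contrast, measured 2609, 3611 and 3191 TPM, with both knockdown libraries above the control. Others of the 10 highest, RPL8, RPL7A, RPS16, RPS19 and RPS18, were again lowest with siRNA1, as the plot of TPM by gene and library shows. The 10 highest together took 3.04%, 2.21% and 3.20% of all TPM.

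**Figure D1:**
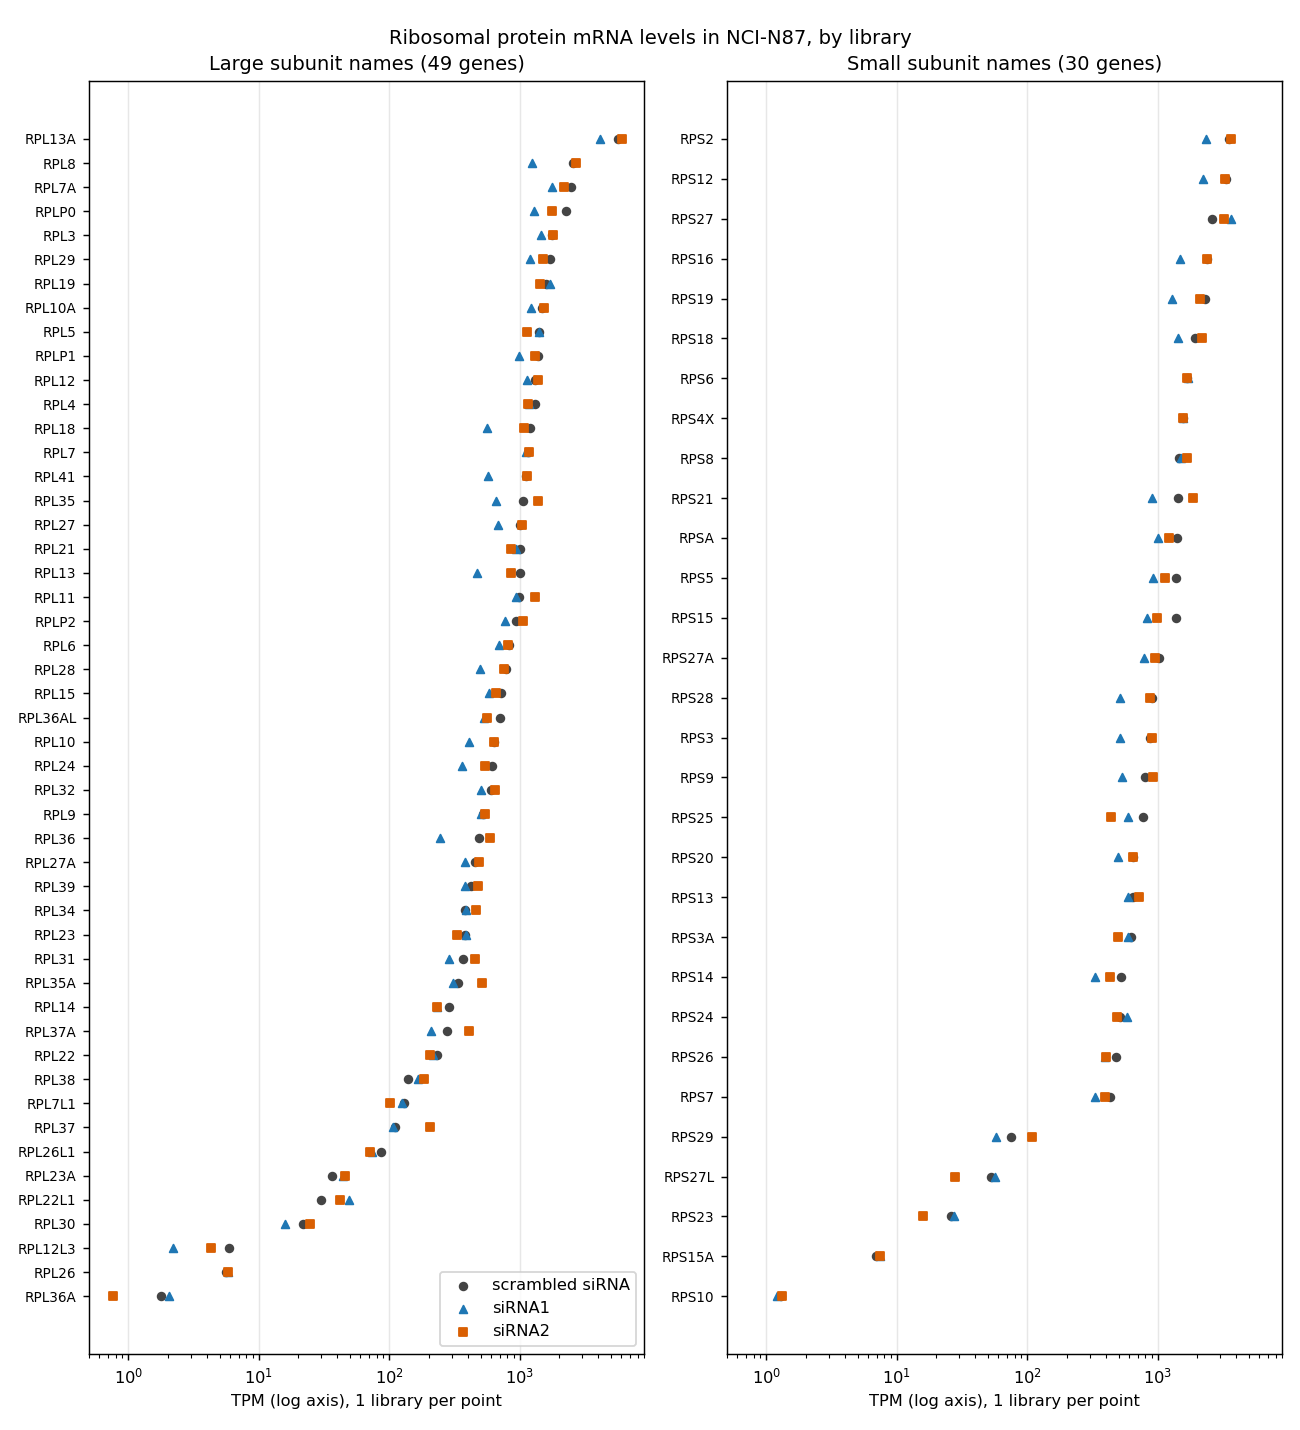
TPM of 79 ribosomal protein genes on a log axis, 1 point per library, with 49 large subunit names on the left and 30 small subunit names on the right, ordered by the scrambled library. Most genes lie above 100 TPM with the siRNA1 point leftmost, while RPS27 has both knockdown points (3611 and 3191 TPM) to the right of the control (2609 TPM).

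At the low end stood genes whose proteins are core parts of the particle. RPS10 measured 1.29, 1.20 and 1.31 TPM, RPL36A 1.77, 2.05 and 0.762 TPM, RPL26 5.59, 5.77 and 5.76 TPM and RPS15A 6.97, 7.46 and 7.43 TPM. RPL30 measured 21.8, 15.9 and 24.9 TPM, RPS23 25.8, 27.6 and 15.96 TPM and RPL23A 36.1, 43.8 and 45.8 TPM. In GENCODE 29, 39.4% of the exon bases of RPS10 are also exon of the readthrough gene RPS10-NUDT3 on the same strand, and 14.3% of those of RPL26 are shared with AC135178.2. For RPS23, processed copies in the table summed to 64.5, 74.4 and 78.6 TPM, above the gene's own value in each library, and for RPL26 they summed to 41.1, 30.6 and 28.6 TPM. How reads with more than 1 possible origin were counted is not given in the sources used here, so these levels are uncertain, and such copies above 0 TPM existed for 66 of the 82 genes. Just above the limit of 1 TPM stood RPS10, RPL36A and RPL12L3 (5.94, 2.19 and 4.31 TPM). Below it, and not kept, were RPS10L, another processed copy (0.800, 1.65 and 0 TPM), RPL10L (1.05, 0.270 and 0.532 TPM), RPL17, a core protein of the exit tunnel (0.591, 0.960 and 0.257 TPM), RPL39L and RPL3L (means of 0.273 and 0.183 TPM) and RPL7AL2, which was listed at 0. For RPL17, 32.7% of exon bases are shared with the readthrough gene RPL17-C18orf32.

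Gene length enters every level. The values stepped by whole reads when multiplied by the summed exon length of a gene in GENCODE 29, within 0.1 of a whole number for 93.2%, 93.3% and 93.4% of values under 2 TPM that came to at most 10 reads. That length includes exons of rare and intron-retaining transcripts, and ran from 501 to 9845 bases over the members, with a median of 3056. TPM in the scrambled library and this length had a Spearman correlation of -0.38 over the 82 genes, against 0.15 for estimated reads. Differences in level between members therefore rest partly on the annotation, whereas folds of 1 gene between libraries do not. Reads estimated in this way came to about 18400000, 18600000 and 19100000 in the same library order, summed over rows matched to GENCODE 29. The scale of each library was the one that gave the highest share of values near whole reads.

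As a group the ribosomal protein genes took a smaller share of TPM with siRNA1. With siRNA2 they took nearly the same share as the control when all rows were counted. The share was 8.34%, 6.33% and 8.39%, a knockdown mean of 7.36% ± 1.45 (SD, n = 2). The scrambled value thus lay between the knockdown values, and an exact two-sided permutation test over the 3 libraries gave p = 1, where the smallest p that 2 libraries against 1 can reach is 0.333. Large subunit names took 4.49%, 3.35% and 4.48%, and small subunit names 3.86%, 2.98% and 3.91%. The 13 mRNAs encoded by the mitochondrial genome took 5.15%, 8.05% and 1.41% of TPM, so they were high in the siRNA1 library and low in the siRNA2 library, and their part in the result was not tested. After removal of mitochondrially encoded genes and rescaling, the ribosomal protein share was 8.91%, 7.07% and 8.55%. Both knockdown values then lay below the control, which was no longer between them.

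**Figure D2:**
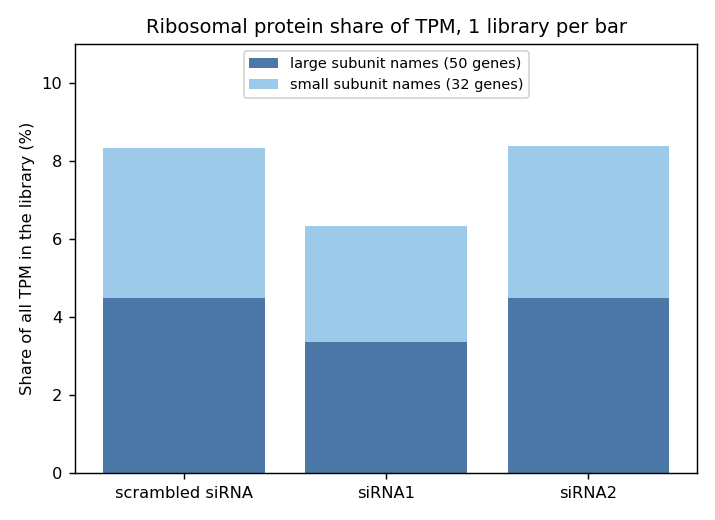
Share of all TPM taken by ribosomal protein genes in each library, in percent, with large subunit names in dark blue and small subunit names in light blue stacked on them. The bars reach 8.34%, 6.33% and 8.39% from left to right, and both subunits are lower in the siRNA1 bar.

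Gene by gene, the siRNAs differed in the same way. Folds are given as log2 of (TPM + 1) against the scrambled library, which understates those of the lowest genes. With siRNA1, 67 of 82 members lay below the control, where 47.9% of all 14429 genes averaging 1 TPM or more did, and the members' median was -0.33 against 0.03 for all genes. With siRNA2, 41 of 82 lay below it, against 65.0% of all genes, and the medians were -0.0011 and -0.24. Members lay 0.36 below the median of all genes with siRNA1 and 0.24 above it with siRNA2. Median-of-ratios rescaling moved the median of all genes with siRNA2 from -0.24 to 0.00056, and the members then lay 0.27 above it. Under quantile normalization they lay 0.10 below it, so the direction for siRNA2 relative to all genes depended on the scaling. Most shifts were small: 5 members were at least 2-fold lower with siRNA1, close to the 6.0% among all genes, and 1 was with siRNA2, where 13.2% of all genes were. At least 2-fold higher were 0 members with either siRNA, where 5.27% and 6.88% of all genes were.

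In limma, with both knockdown libraries against the scrambled one and Benjamini-Hochberg adjustment over all 14429 genes, 0 members and 0% of all genes passed an adjusted p of 0.05. At an unadjusted p under 0.05 there was 1 member, where 2.97% of all genes were below it. In a fit of the 9129 genes averaging 10 TPM or more, 1 of 77 members was called. Of all genes in that fit 93 were called (1.02%), and 9 of them were lower (0.0986%). Both fits have 1 residual degree of freedom per gene, taken from the difference between the siRNAs, to which limma adds prior degrees of freedom from all genes. These were 4.36 in the first fit and infinite in the fit at 10 TPM. In the latter the trend over all genes thus replaced each gene's own variance. In both fits the p-values reflect no more than how these libraries differ.

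Of the canonical members reported by name, those with the lowest mean folds were RPL13, RPS15, RPL18, RPS25 and RPLP0. RPL13 measured 997, 466 and 852 TPM, and RPL18 1190, 565 and 1077 TPM, so both were low chiefly with siRNA1. RPS15, which sits near the decoding site, measured 1376, 829 and 976 TPM, and RPLP0, the base of the stalk, 2261, 1282 and 1754 TPM. In these 2 genes both knockdown values lay below the control, by log2 -0.73 and -0.50 for RPS15 and by -0.82 and -0.37 for RPLP0. RPS25, used by several viral internal ribosome entry sites, was lowest with siRNA2, at 775, 591 and 438 TPM. None of the 5 passed limma in the fit of all 14429 genes, where no gene passed. Their folds differed between the siRNAs by up to 0.93.

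The highest mean folds among canonical members belonged to RPL37, RPS27, RPL38, RPL23A, RPL35A and RPL11. RPL37, a zinc-binding large subunit protein, measured 111, 106 and 204 TPM, and RPL35A 334, 309 and 510 TPM. RPL11, which with RPL5 binds the 5S RNA and can inhibit MDM2, measured 990, 936 and 1316 TPM. In those 3 genes only the siRNA2 library stood above the control. RPL38 measured 138, 165 and 184 TPM, so like RPS27 it was above the control in both knockdown libraries. None of the 6 passed limma in the fit of all 14429 genes, where no gene passed, FOXP4 included.

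**Figure D3:**
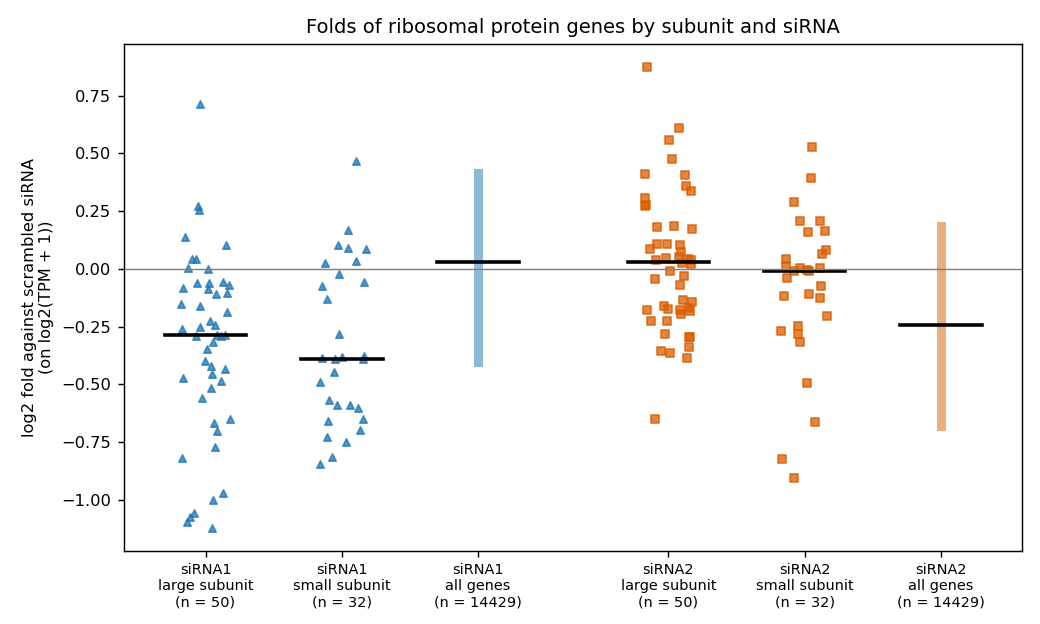
Log2 fold against the scrambled siRNA for 79 ribosomal protein genes, by subunit and siRNA, with black lines at the medians over all 82; for all 14429 genes the coloured bar is the interquartile range. Medians with siRNA1 are -0.29 for large and -0.39 for small subunit names, medians with siRNA2 are 0.03 and -0.0091.

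The subunits had close medians within each library. With siRNA1 the median log2 fold was -0.29 over the 50 large subunit genes, of which 42 lay below the control, and -0.39 over the 32 small subunit genes, of which 25 did. With siRNA2 the medians were 0.03 and -0.0091, with 23 of 50 and 18 of 32 below the control. The difference between medians, large minus small, was 0.11 with siRNA1 and 0.04 with siRNA2, both well within the spread among genes of 1 subunit. The middle 50% of large subunit genes lay between -0.55 and -0.07 with siRNA1. The ratio of summed TPM, large to small, was 1.16 with the scrambled siRNA and 1.14 ± 0.02 (SD, n = 2) with FOXP4 siRNA. The median gene measured 715, 496 and 649 TPM in the large subunit and 880, 589 and 913 TPM in the small subunit.

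Within subunits, genes of 1 structural site did not share a single fold. The stalk, which recruits translation factors, is formed by RPLP0, RPLP1 and RPLP2. RPLP1 measured 1384, 988 and 1317 TPM and RPLP2 936, 766 and 1055 TPM. Stalk folds ran from -0.82 to -0.29 with siRNA1 and from -0.37 to 0.17 with siRNA2. RPL5 measured 1397, 1396 and 1138 TPM, so the partners of the 5S RNA differed with siRNA2, with RPL5 below the control and RPL11 above it. RPL4 and RPL39 line the exit tunnel of the nascent chain. RPL4 measured 1302, 1172 and 1156 TPM and RPL39 422, 378 and 480 TPM. On the small subunit RPS3, at the mRNA entry, measured 863, 513 and 902 TPM, and RPS14 and RPS16, on the platform and near RACK1, 520, 331 and 432 TPM and 2379, 1466 and 2373 TPM. RPS26, at the mRNA exit, measured 477, 392 and 402 TPM. RPS6, the substrate of S6 kinase, hardly varied, at 1668, 1696 and 1659 TPM, and RPS4X, an X-linked protein, measured 1566, 1544 and 1570 TPM.

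A fixed list of 18 genes mutated in Diamond-Blackfan anaemia, all measured, had median folds of -0.33 (siRNA1) and -0.01 (siRNA2). Of these genes 15 and 9 lay below the control (83.3% and 50%). These shares were close to the 81.7% and 50% of all 82 members, beside 47.9% and 65.0% of all genes. RPS19, the gene most often mutated in that disease, measured 2288, 1273 and 2098 TPM. RPS24 measured 514, 578 and 488 TPM. RPS27A is translated as a fusion of ubiquitin with its ribosomal protein and measured 1027, 787 and 951 TPM. FAU, which encodes a further ribosomal protein as a fusion under a name outside the rule, measured 224, 181 and 240 TPM. RACK1, listed as GNB2L1, measured 837, 694 and 866 TPM.

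The folds with siRNA1 went with base composition. Over the 82 members the Spearman correlation of the siRNA1 fold with the GC content of the longest transcript was -0.57, and it was 0.14 for siRNA2. Points here share libraries and a control, so the values are descriptions. Over 12755 genes with a known GC content the correlations were -0.61 and -0.10. Among the 20 members with at least 55% GC the median siRNA1 fold was -0.66 and 19 lay below the control. Among the 51 members under 50% GC it was -0.11, with 37 below. With siRNA2 the medians of these bands were 0.06 and -0.01. RPL8 (63.1% GC) measured 2557, 1229 and 2689 TPM, RPL36 (61.9% GC) 489, 244 and 592 TPM and RPL35 (63.7% GC) 1066, 655 and 1366 TPM. With the GC trend over all genes removed, the siRNA1 fold of RPL8 went from -1.06 to -0.39, that of RPL36 from -0.999 to -0.40 and that of RPL35 from -0.70 to 0.0017. The members' median with siRNA1 was -0.34 with the GC trend removed, as low as before. With the trend over transcript length removed instead, it was -0.14, against 0.02 for all genes, so that gap was smaller. RPL41, which encodes one of the shortest human proteins, was low with siRNA1 at a moderate 48.1% GC, at 1118, 569 and 1135 TPM. Its siRNA1 fold was -0.97 before and -1.03 after removal of the GC trend.

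**Figure D4:**
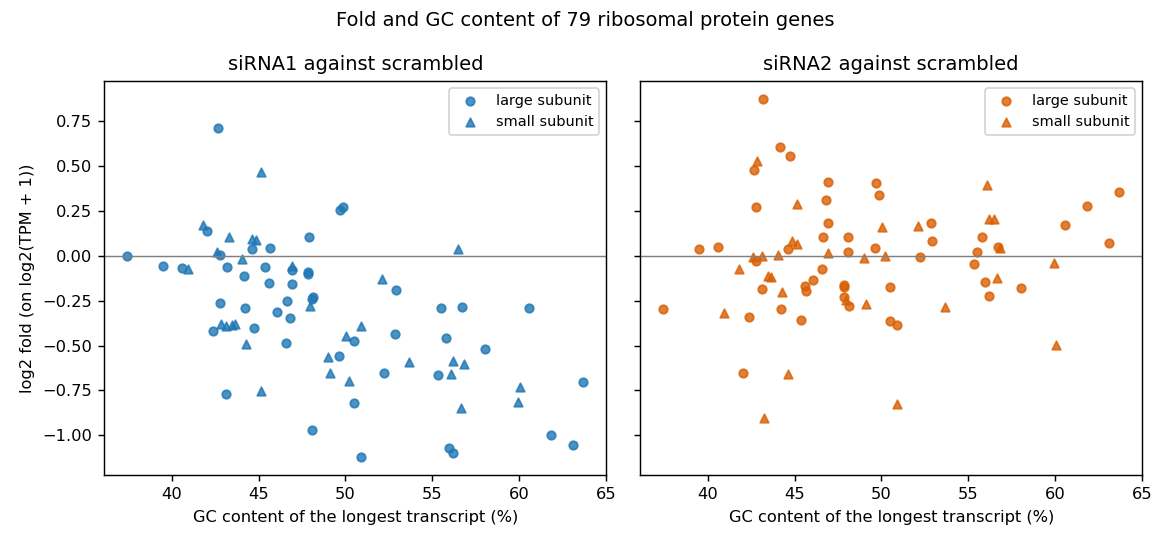
Log2 fold against the scrambled siRNA by GC content of the longest transcript, in percent, for 79 ribosomal protein genes, with siRNA1 on the left, siRNA2 on the right, circles for large and triangles for small subunit names. With siRNA1 the points slope down from left to right, and with siRNA2 they show no slope by eye.

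The siRNA libraries were also set against each other, 1 library against 1 and without a test. Of the 82 members, 61 were higher with siRNA2 and 21 lower, where 64.3% of all genes were lower, and the median difference was 0.31 against -0.25 over all genes. At least 2-fold higher with siRNA2 were 5 members, near the 5.99% of all genes. They included RPL36, RPL8, RPL35 and RPS21 (1415, 895 and 1858 TPM). At least 2-fold lower was 1 member, RPS27L, where 12.8% of all genes were. The next lowest were RPL36A, RPS23 and RPS25, with differences of -0.79, -0.75 and -0.43.

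The paralogs were mostly minor next to the genes they resemble. RPL22L1, a paralog of the RNA-binding protein RPL22, measured 29.8, 49.5 and 41.8 TPM, while RPL22 measured 232, 216 and 205 TPM. Both knockdown libraries thus had more RPL22L1 and slightly less RPL22, and its part in the sum of the pair was 11.4% in the control, then 18.6% and 16.9%. The knockdown mean was 17.8% ± 1.20 (SD, n = 2), so the gap to the control was larger than the spread between the siRNAs. That also held for the pairs of RPL26L1, RPL10L and RPS27L, and not for those of RPL3L, RPL7L1, RPL36AL and RPL39L. The RPL10L share, however, rested on about 4, 1 and 2 estimated reads. The RPL26L1 share was lower than the control in both knockdown libraries, but higher in both once processed copies were added. With 1 control library the variation of the control is unknown, so such a gap does not establish a change. In limma RPL22L1 did not pass (mean log2 fold 0.60, adjusted p = 0.9999, from 0.742 to 1.00 over the alternatives). Its level rested on about 323, 519 and 447 estimated reads.

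RPS27L measured 52.8, 56.8 and 27.8 TPM beside a far higher RPS27. Its part in the pair was 1.98%, 1.55% and 0.862%. Low values of RPS27L were thus seen with siRNA2 alone. RPL7L1, a nucleolar relative of RPL7, measured 130, 125 and 101 TPM, which was 10.1%, 10.1% and 7.88% of its pair, and RPL7 measured 1153, 1109 and 1182 TPM. For 2 pairs the paralog was listed above the canonical gene. RPL36AL measured 708, 529 and 560 TPM and was 99.8%, 99.6% and 99.9% of its pair with RPL36A. RPL26L1 measured 86.5, 73.7 and 71.0 TPM and was 93.9%, 92.7% and 92.5% of its pair with RPL26, a share that was 64.9%, 67.0% and 67.4% once processed copies were added. These 2 shares rest on the low canonical values described above. RPL3L, RPL10L and RPL39L did not exceed 0.164% of their pairs in any library.

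**Figure D5:**
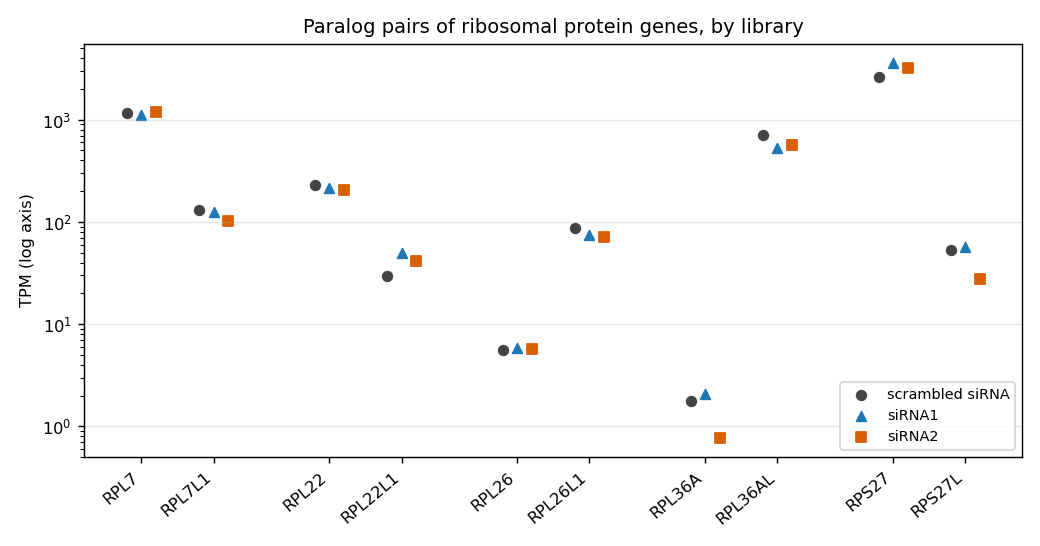
TPM on a log axis of 5 paralog pairs of ribosomal protein genes, 1 point per library. RPL22L1 lies higher in both knockdown libraries than in the control (29.8, 49.5 and 41.8 TPM), RPS27L is lowest with siRNA2, and RPL26 and RPL36A lie below their paralogs in all 3 libraries.

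Genes with and without the pyrimidine tract had close median folds. Over the 47 genes with it at a listed start the medians were -0.39 with siRNA1 and -0.0037 with siRNA2. Over the 19 matched genes without it exactly there, some of which had it within 5 bases, they were -0.28 and -0.12. In the control the median level was 800 TPM for those with the tract and 722 TPM for those without. With the tract allowed within 5 bases, the median folds were -0.38 and -0.0075 over 55 genes, and -0.26 and -0.14 over the 11 without. The control levels under that rule were further apart, at 863 and 526 TPM.

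Other genes of the pathway gave a mixed picture. For comparison, 47.9% of all 14429 genes lay below the control with siRNA1 and 65.0% with siRNA2, with medians of 0.03 and -0.24. Of 29 measured translation factor genes and host RNAs of the tract-bearing class, 14 lay below the control with siRNA1 and 16 with siRNA2, with medians of 0.02 and -0.08. TPT1, which encodes an abundant tract-bearing mRNA, measured 446, 707 and 630 TPM, and the small RNA host ZFAS1 130, 176 and 237 TPM, while EEF1D measured 23.9, 16.1 and 18.8 TPM. Of 51 ribosome assembly factors, 19 lay below the control with siRNA1 and 36 with siRNA2, with medians of 0.20 and -0.29. RRS1, needed for large subunit assembly, measured 59.5, 21.9 and 19.5 TPM and was the 1 assembly factor at least 2-fold lower with both siRNAs, where 2.38% of all genes were, and NHP2, a box H/ACA protein, measured 84.8, 50.7 and 47.7 TPM. MDN1, the assembly ATPase, measured 7.71, 11.4 and 16.3 TPM, and the kinase gene RIOK1 32.8, 63.3 and 43.2 TPM.

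The 16 genes of RNA polymerase I and 5S transcription had medians of 0.10 and -0.46. TAF1A, a subunit of the polymerase I selectivity factor, measured 15.7, 44.9 and 67.5 TPM and was at least 2-fold higher with both siRNAs, where 2.52% of all genes were, and GTF3A, the 5S gene factor, measured 120, 90.2 and 61.3 TPM. The 23 genes that control ribosomal protein synthesis had medians of 0.01 and -0.20, with RICTOR at 12.7, 24.6 and 19.1 TPM and RPS6KB2 at 22.3, 14.4 and 9.71 TPM. None of these lists had a gene past limma's adjusted threshold, and neither did any other gene tested. For the 73 mitochondrial ribosomal protein genes the medians were -0.22 and -0.46 (siRNA1, siRNA2), and the 33 proteasome subunit genes -0.19 and -0.31. These stand beside -0.33 and -0.0011 for the cytosolic ribosomal protein genes, and 0.03 and -0.24 for all genes. The differences between the lists were not tested.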

How the data were processed

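The authors deposited 1 table of TPM with gene symbols and 1 column per library, and its sample columns were matched to the libraries by title. Per the submitters' processing notes the build was GRCh38 (hg38). The quantification tool and annotation are not given in the sources used here. Column sums were 998273, 998717 and 998406 TPM. Values were compared as log2(TPM + 1) for the 14429 genes averaging 1 TPM or more, using limma 3.58.1 in R 4.3.3 (intensity trend, Benjamini-Hochberg adjustment over all genes), and by a 2-fold rule of size. The scrambled library was assumed to vary like the others.

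Positions, exon lengths, GC content and exon overlaps came from GENCODE 29, matched by symbol or an unambiguous older symbol for 22999 rows, for 88.4% of the genes tested and for all 82 members. GC and length trends were removed with a lowess curve (fraction 0.3) of each fold, set by genes averaging 10 TPM or more. Code was tested on simulated data.

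The members and lists were chosen with earlier results of these data known. Genes were named by rule. The rule took the 10 highest by mean TPM, the 6 highest and 6 lowest canonical members by mean fold, and the 4 most different each way between siRNAs. It also took every paralog pair and fixed role groups. From the other lists, genes were drawn from the 2 highest and 2 lowest by mean fold, and not all of these were named. RPL30, RPL41, RPS15A, RPS4X and RPSA were named after their values were seen. Some genes, 3 members among them, enter the counts and medians but are not reported by name or drawn here.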

Additional observations from a re-analysis of the deposited data

How the results depend on the processing

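Limits first: there is 1 control library, each siRNA has 1, and the lowest canonical genes rest on few reads (about 14.2 in the control for RPS10 and 32.7 for RPL36A). No paired analysis was possible because there is 1 control library and no label pairs it with a knockdown library. The count of members called by limma went from 0 to 1 with a mean of at least 10 TPM (93 of 9129 genes called), without mitochondrially encoded genes (9 of 14598) and with the length trend removed (12 of 12755), and stayed 0 under the other alternatives. The siRNA2 median of members was 0.28 with median-of-ratios rescaling, 0.24 with the GC trend removed and 0.32 with the length trend removed, against -0.0011; quantile normalization gave -0.15 and removal of mitochondrially encoded genes -0.07; the siRNA1 median stayed between -0.38 and -0.14. The median of siRNA2 minus siRNA1 became 0.60 with median-of-ratios rescaling and 0.63 with the GC trend removed, against 0.31, and 0.16 with quantile normalization and 0.18 without mitochondrially encoded genes. Members at least 2-fold higher with siRNA2 than siRNA1 numbered 16 with median-of-ratios rescaling, 1 without mitochondrially encoded genes, 2 with quantile normalization, 8 with the GC trend removed and 10 with the length trend removed, against 5. The large minus small median with siRNA1 was 0.16 with quantile normalization, -0.0088 with the GC trend removed and 0.040 with the length trend removed. The cause of these shifts was not tested. Leaving out 1 siRNA library, the members' median ran from -0.33 to -0.0011, large minus small from 0.039 to 0.11, the count at least 2-fold lower from 1 to 5, the count at least 2-fold higher was 0 both times, and the share of TPM against the control ran from -2.01 to 0.043 percentage points. The mean fold of single members changed sign for 34 of 82 with the length trend removed, 21 with the GC trend removed, 16 with median-of-ratios rescaling and 4 with quantile normalization, and for 0 under the 5 other settings; none of these was called.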

Other observations

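Rows named as processed copies of ribosomal protein genes, which arise by reverse transcription of the mRNAs, took 0.696%, 0.461% and 0.695% of TPM in the scrambled, siRNA1 and siRNA2 libraries. There were 438 such rows, of which 137 had a mean of at least 1 TPM. RPL41P1 measured 2909, 1764 and 2877 TPM, above RPL41 itself in each library. RPS2P5 measured 1186, 770 and 1500 TPM and RPL13P12 542, 201 and 457 TPM. In these 3 copies the siRNA1 library was lowest, as it was for the genes they resemble. RPSAP47 differed from its parent gene, at 10.5, 43.5 and 15.8 TPM, where RPSA, the laminin receptor protein of the small subunit, measured 1404, 1000.2 and 1220 TPM. Whether reads were exchanged between a copy and its parent in counting was not tested.

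The 12 members on chromosome 19 had a median siRNA1 fold of -0.71 and a median siRNA2 fold of -0.02, and their median GC content was 56.1%.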
